A study of Mus musculus with 4 samples.

Results

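Tryptases are trypsin-like serine proteases of mast cell and basophil granules. The genes described here are Tpsb2, Tpsab1 and Prss34, 3 of the 24340 genes in the deposited expression table, chosen by their symbols as members of this family. They were chosen with their levels in these libraries already known, so the levels and ratios below are a description and carry no test.

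RNA was measured in C57BL/6 mouse bone marrow cells sorted for the absence of lineage markers and the presence of Kit, as immature blood cells are. All cells carried the activated kinase JAK2V617F. They were Tet2+/+ or Tet2-/-, that is wild type or knockout for an enzyme that oxidises methylated cytosine, and each genotype was measured once as a control and once after treatment with ruxolitinib, which inhibits JAK1 and JAK2. There were 4 libraries, 1 per combination of genotype and treatment, so no value here has a replicate check. Where a pair of values is given for a genotype, the control library comes first and the ruxolitinib library second. The series text describes conditional inactivation in the blood system. Its driver, the ages of the mice, any pooling of animals, and the dose and time of ruxolitinib are not given in the labels.

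The libraries were alike in breadth, with 10323 to 10375 genes at 1 FPKM or more (fragments per kilobase of transcript, scaled to library size). Over the whole gene, Tet2 had 4.69 and 5.05 FPKM in wild type against 3.62 and 4.39 FPKM in the libraries labelled knockout; the deleted part was not examined, so these values do not check the label. Of 12 mast cell markers, 11 were above 0 in each library, and their summed level was 24879 and 28249 FPKM for wild type and 16553 and 19682 FPKM for knockout. Most of that sum was Cma1 and Fcer1a, so it is not a measure of the 12 markers as a set. Both knockout libraries lay below both wild-type libraries for 6 of the 12 and above for 1, and the genotypes overlapped for 5. Among all genes with a mean of 1 FPKM or more, each order had a share of 28.2%. Kit lay between 421 and 647 FPKM and the progenitor marker Cd34 between 307 and 465 FPKM, while Flt3, a marker of early progenitors, was listed at 0 in all 4. Cpa3, a carboxypeptidase of the granule, was listed at 0 throughout, where the authors' deposited table has a status for loci with too many fragments to estimate. Sex-linked genes separated with genotype: the X-inactivation RNA Xist was at 53.2 and 62.2 FPKM in knockout and did not exceed 0.0309 FPKM in wild type, so genotype and sex cannot be told apart here. Of 8 feedback targets of the JAK2 effector STAT5, 6 were at least 2-fold lower with ruxolitinib in each genotype. Among all genes with a mean of 1 FPKM or more, 1.29% in wild type and 0.917% in knockout were that much lower. The inhibitor Cish, among the 6, had 174.1 and 45.1 FPKM for wild type and 113.8 and 40.7 FPKM for knockout. These targets were listed with earlier results of these data known, so they are a description and no independent check of the drug.

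Mast cells keep tryptases as active enzymes bound to heparin, the sulphated sugar chain carried by the granule core protein serglycin, and release them when the IgE receptor is crosslinked. Tpsb2 encodes the main tryptase of mouse connective tissue mast cells. Tpsab1 encodes a related tryptase that is lost as a protein in C57BL/6 mice, which carry a splice site change in the gene. Prss34 encodes a trypsin-like protease best known from basophils and also made by some mast cells. Tpsg1, a neighbour used here for comparison, encodes a tryptase anchored in the membrane.

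All 3 genes lie within 69.7 kb of chromosome 17 in mm10, at chr17:25298394-25300161 for Prss34 on the plus strand, chr17:25343245-25345562 for Tpsab1 on the minus strand and chr17:25366333-25368092 for Tpsb2 on the plus strand. Their kinship shows in the coding bases around the codon of the catalytic serine, in capitals below, taken from the GENCODE M21 transcripts and running across an intron in each gene.
Tpsb2: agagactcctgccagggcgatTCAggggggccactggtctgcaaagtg
Tpsab1: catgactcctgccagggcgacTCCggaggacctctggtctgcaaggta
Prss34: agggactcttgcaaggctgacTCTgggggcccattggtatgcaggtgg

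The next sequences are shown because they set a limit on what a value for Tpsab1 means. GENCODE lists 2 Tpsab1 transcripts, and the one with 2 exons lacks all or part of an exon of 166 bases that the transcript with 5 exons holds. The other exons of the transcript with 5 lie within those 2 exons, so the shorter list of exons also keeps intron sequence. That length is not a multiple of 3, so leaving out this exon alone would shift the reading frame. The frame of the transcript with 2 exons was not examined. The RefSeq table for the C57BL/6J genome gives Tpsab1 the type transcribed pseudogene and gives Tpsb2 and Prss34 as protein-coding. An FPKM for the whole gene does not say whether the exon was used. The 166-base exon of Tpsab1 (chr17:25345050-25345215, minus strand) and its counterpart in Tpsb2 (chr17:25366760-25366925, plus strand) are given 5′ to 3′, with capitals at the 33 bases that differ.
Tpsb2 exon: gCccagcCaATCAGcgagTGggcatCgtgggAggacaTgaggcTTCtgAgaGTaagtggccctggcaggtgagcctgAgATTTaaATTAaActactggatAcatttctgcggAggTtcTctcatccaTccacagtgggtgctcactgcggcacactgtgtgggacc
Tpsab1 exon: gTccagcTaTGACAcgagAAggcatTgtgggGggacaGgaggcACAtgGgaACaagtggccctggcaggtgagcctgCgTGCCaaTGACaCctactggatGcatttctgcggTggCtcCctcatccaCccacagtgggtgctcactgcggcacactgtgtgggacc

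These exons were identical at 133 of 166 bases, or 80.1%. Over the whole transcripts the longest identical run of Tpsb2 and Tpsab1 was 39 bases, and Prss34 shared no run over 14 bases with either. No window of 50 bases was common to Tpsb2 and Tpsab1, and 1.33% of the windows of 25 bases in Tpsab1 also occurred in Tpsb2. The labels give neither the read length nor the treatment of reads with several matches, and reads of the abundant Tpsb2 that were counted as Tpsab1 were not tested for.

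Tpsb2 was among the most abundant transcripts in every library and differed little between them. Wild-type cells had 3063 FPKM as controls and 3257 FPKM after ruxolitinib, and knockout cells had 3026 and 3692.5 FPKM. By FPKM it ranked 8 and 9 among all genes in wild type and 7 and 4 in knockout. The highest level of Tpsb2 was 1.22-fold the lowest, and the genotypes overlapped.

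Tpsab1 was far lower than Tpsb2 and higher in both knockout libraries than in both wild-type libraries. Its level was 23.3 FPKM in wild-type controls and 10.03 FPKM after ruxolitinib, and in knockout cells it was 52.0 and 42.9 FPKM. It lay below Tpsb2 by a factor of 131.6 and 324.6 in wild type and of 58.2 and 86.2 in knockout. In both genotypes the ruxolitinib library was the lower one.

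Prss34 was close to the lower end of the scale in wild-type cells and moderately expressed in knockout cells. Wild-type cells had 0.266 FPKM as controls and 0.548 FPKM after ruxolitinib, against 11.3 and 12.8 FPKM for knockout cells. The genotypes did not overlap. Within each genotype, the control and ruxolitinib libraries lay close together compared with the gap between genotypes.

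The order of the levels was therefore Tpsb2, Tpsg1, Tpsab1 and Prss34 in each of the 4 libraries, on a scale that accounts for transcript length. Tpsg1 lay between 433 and 496 FPKM. Tpsb2 made up 99.2% and 99.7% of the summed FPKM of Tpsb2, Tpsab1 and Prss34 in wild type and 98.0% and 98.5% in knockout. Tpsab1 made up 0.754% and 0.307% in wild type and 1.68% and 1.14% in knockout, and Prss34 0.00861% and 0.0168% against 0.364% and 0.340%. The total of the 3 genes was 3086 and 3268 FPKM in wild type and 3089 and 3748 FPKM in knockout, so it followed Tpsb2.

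**Figure D1:**
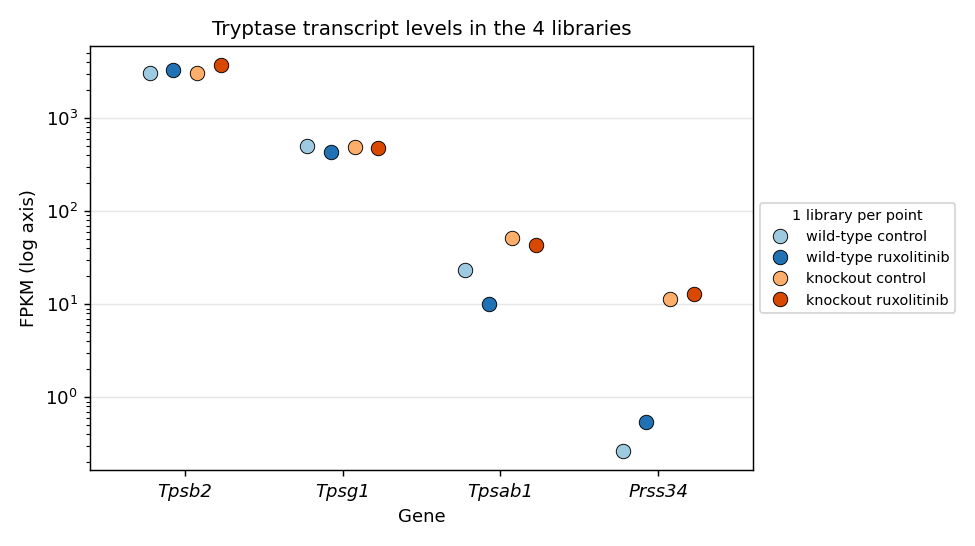
Levels of the tryptase transcripts in FPKM on a log axis, 1 point per library, with wild-type libraries in blue and knockout libraries in orange. Tpsb2 and Tpsg1 are level across libraries, while Tpsab1 is at 52.0 and 42.9 FPKM and Prss34 at 11.3 and 12.8 FPKM in knockout against at most 23.3 and 0.548 FPKM in wild type.

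How firmly these levels were counted was estimated from the steps between the lowest FPKM values of long genes, which show what 1 fragment is worth in each library. Prss34 then stood on about 12 and 27 fragments in wild type, with exact Poisson 95% intervals of 6.20 to 21.0 and 17.8 to 39.3. In knockout it stood on about 626 and 683 fragments. For Tpsab1 the estimates were 980 and 458 in wild type and 2709 and 2152 in knockout, and for Tpsb2 they ran from 123851 to 178031. These are estimates that include any scaling by Cuffdiff, and their intervals cover counting error only.

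The comparison of knockout with wild type without drug separated the 3 genes. Ratios are given on the scale of log2(FPKM + 1). Prss34 was higher by 3.28 in the knockout control library, Tpsab1 higher by 1.13, and Tpsb2 had a ratio of -0.02, which became 0.13 after rescaling to transcripts per library total (TPM). At 2-fold or more, 2 of the 3 genes were higher and 0 lower, while 1.19% of the 10471 measured genes were higher and 1.7% lower. Measured genes are those whose mean over the 4 libraries was 1 FPKM or more. Prss34 reached that mean only through the knockout libraries, so it had to differ, and nothing is read from the count. A change in the share of cells that make a transcript and a change in RNA per cell cannot be told apart in these bulk libraries.

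Since the pseudocount weighs on a gene near 0, the plain ratio of Prss34 was also taken. Its FPKM was 42.4-fold higher in the knockout control than in the wild-type control library, with a counting interval of 24.0 to 82.0. Tpsab1 was 2.23-fold higher, with an interval of 2.08 to 2.41. The authors' deposited table gives q-values of 0.000746 for Prss34, 0.000746 for Tpsab1 and 0.972 for Tpsb2 in this comparison. The value of 0.000746 is the smallest that table holds, and its q-values set 1 library against another, with no spread between animals.

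With ruxolitinib, the same 2 genes again stood at 2-fold or more in the knockout library. Prss34 was higher by 3.15 and Tpsab1 by 1.99 on the log2 scale, and Tpsb2 by 0.18. The plain ratios were 23.3-fold for Prss34, with a counting interval of 15.7 to 35.2, and 4.27-fold for Tpsab1, with an interval of 3.86 to 4.74. Among all measured genes, 1.18% were higher by that rule and 1.35% lower. The authors' deposited table gives q-values of 0.000746 for Prss34 and for Tpsab1 and 0.560 for Tpsb2.

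Both knockout libraries lay above both wild-type libraries for 2 of the 3 genes, Tpsab1 and Prss34. Across all measured genes this held for 28.2%, and for a further 28.2% both knockout libraries lay below, so the order alone is common in these libraries. Counted from the highest ratio of the 10471 measured genes, Tpsab1 ranked 110 without and 53 with drug. Prss34 was in that set through the knockout libraries alone, so no rank is given for it and nothing is read from its order.

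Ruxolitinib went with a lower Tpsab1 level in wild-type cells, and no other drug ratio of the 3 genes reached 2-fold on the log2(FPKM + 1) scale. In wild type, the log2 ratio of drug to control was -1.14 for Tpsab1, 0.09 for Tpsb2 and 0.29 for Prss34. The plain Tpsab1 level with drug was 0.431 times that in control, with a counting interval of 0.385 to 0.482. The plain ratio of Prss34, which rests on few fragments in wild type, was 2.06, with an interval of 1.02 to 4.49. At 2-fold or more, 1 of the 3 genes was lower and 0 higher, beside 1.29% lower and 0.516% higher among all measured genes. The authors' deposited table gives q-values of 0.000746 for Tpsab1, 0.828 for Tpsb2 and 0.242 for Prss34.

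In knockout cells the ratios of drug to control were smaller for Tpsab1, at -0.27, and were 0.29 for Tpsb2 and 0.17 for Prss34. None of the 3 genes reached 2-fold, while 0.63% of measured genes were higher and 0.917% lower by that rule. The authors' deposited table gives q-values of 0.188 for Tpsab1, 0.250 for Tpsb2 and 0.561 for Prss34. The drug ratio in knockout minus that in wild type was 0.86 for Tpsab1, 0.20 for Tpsb2 and -0.12 for Prss34 (0.05 with a pseudocount of 5), and with 1 library per group these differences were not tested. The drug and genotype ratios of a gene share libraries, so the low Tpsab1 level in the wild-type ruxolitinib library enters both the drug ratio in wild type and the knockout ratio with drug.

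Other proteases of the mast cell granule did not share one direction with the tryptases. Of 10 such genes 8 were measured, and their median log2 ratio of knockout to wild type was -0.43 without drug and -0.41 with drug, beside 0.00 over all measured genes in both cases. Without drug, 1 was at least 2-fold higher and 3 lower in the knockout library, beside shares of 1.19% and 1.7% among all measured genes. The lower ones were the mucosal mast cell chymases Mcpt1, at 531 and 165 FPKM, and Mcpt2, at 2085 and 794 FPKM, and cathepsin G, encoded by Ctsg, at 90.4 and 27.1 FPKM. The higher one was Mcpt8, a protease known as a basophil marker, with 94.4 and 95.6 FPKM in wild type and 277 and 254 FPKM in knockout. The ratio of Mcpt8 to Prss34 was 355 and 174 in wild type and 24.6 and 19.9 in knockout.

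The chymases of connective tissue mast cells differed in how near they lay to Tpsb2. Mcpt4 had knockout ratios of -0.13 without drug and 0.02 with drug, beside -0.02 and 0.18 for Tpsb2, while Cma1 had ratios of -0.72 and -0.65. Another chymase gene, Cma2, had ratios of -0.12 and 0.04. The level of Cma1 was 4.47 and 4.86 times that of Tpsb2 in wild type and 2.74 times in both knockout libraries. With ruxolitinib, Mcpt4 was higher by 0.35 in wild type and 0.50 in knockout, and Mcpt2 by 0.75 and 1.36. Granzyme B, encoded by Gzmb, was level, between 3096 and 3596 FPKM. Tpsab1 was the only gene among these 8 and the 3 tryptase genes at 2-fold or more lower with drug, in wild type. At most 1.29% of all measured genes were that much lower with drug in either genotype.

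**Figure D2:**
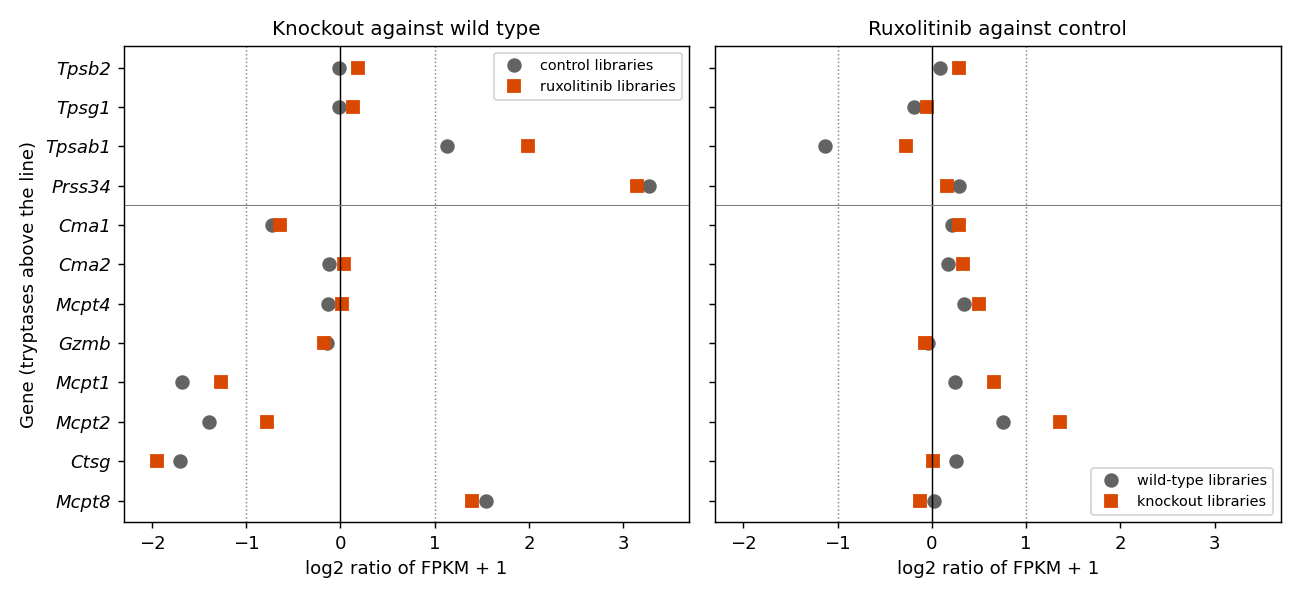
Log2 ratios of FPKM + 1 for Tpsb2, Tpsg1, Tpsab1 and Prss34, above the line, and for 8 other granule proteases, with dotted lines at 2-fold. In the left panel Prss34 and Tpsab1 lie to the right with Mcpt8, while Mcpt1, Mcpt2 and Ctsg lie to the left, and in the right panel Tpsab1 in wild type is at -1.14.

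Genes for the heparin on which tryptases are stored were mostly level, as most measured genes were. Of 15 measured genes for serglycin and heparin synthesis, 1 was at least 2-fold lower and 0 higher in the knockout library, both without and with drug, and 0 reached 2-fold with ruxolitinib. At most 1.7% of all measured genes did so in any comparison and direction, so nothing is read from these counts. The median ratio of knockout to wild type for the 15 genes was -0.00 without drug and -0.04 with drug. Ndst2, the sulphotransferase needed for heparin in mast cells, lay between 229 and 272 FPKM. The gene at 2-fold was Hs3st1, a sulphotransferase that makes the antithrombin-binding site of heparin, at 66.9 and 63.4 FPKM for wild type against 18.8 and 19.5 FPKM for knockout. Serglycin itself, encoded by Srgn, had 5383 and 5084 FPKM in wild type and 3502 and 3854 FPKM in knockout.

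Cysteine cathepsins, which are lysosomal proteases, and their inhibitors had 6 of 8 genes measured and none at 2-fold in any of the 4 comparisons. Their median ratio of knockout to wild type was -0.29 without drug and -0.10 with drug. Cathepsin C, which activates granule proenzymes and is encoded by Ctsc, had 121.8 and 86.9 FPKM in wild type and 92.4 and 82.0 FPKM in knockout. Of 18 transcription factors of mast cells and basophils, 16 were measured, and 0 reached 2-fold in any comparison, with knockout medians of -0.11 and -0.13. At most 1.7% of all measured genes did so in any comparison and direction. Nothing is therefore read from this count or from that of the cathepsins. Gata2, which acts in both lineages, had 409 and 375 FPKM in wild type and 349 and 333 FPKM in knockout. Mitf, a regulator of tryptase genes in mast cells, lay between 23.4 and 26.5 FPKM, Stat5a between 28.8 and 37.3 FPKM and Stat5b between 31.0 and 38.0 FPKM. One factor below the filter, the granulocyte and basophil factor Cebpa, had 0.111 and 0.0683 FPKM in wild type and up to 1.62 FPKM in knockout.

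Because Prss34 is known from basophils, the 8 basophil markers are given beside it. All 8 were above 0 in each library, and their summed level was 473 and 416 FPKM for wild type against 606 and 592 FPKM for knockout. Most of that sum was Cd200r3 and Mcpt8, and Mcpt8 had 94.4 and 95.6 FPKM in wild type and 277 and 254 FPKM in knockout. The sum is therefore not a measure of the 8 markers as a set. Both knockout libraries lay above both wild-type libraries for 4 of the 8 markers, Mcpt8, Cebpa, the growth factor gene Hgf and the integrin gene Itga2. Both lay below for 1, the glutamate receptor gene Grm6, and the genotypes overlapped for 3. Among all measured genes each order had a share of 28.2%, and Cebpa and Itga2 were below the filter for that set. Hgf passed that filter through the knockout libraries alone, so nothing is read from the count of 4. Among the 3 that overlapped, the surface receptor Cd200r3 lay between 267 and 318 FPKM and the interleukin-3 receptor chain Il3ra between 38.8 and 46.3 FPKM. Itga2 did not exceed 0.268 FPKM. Hgf was at 0.470 and 0.487 FPKM in wild type against 2.88 and 1.94 FPKM in knockout, and Grm6 at 13.6 and 5.28 FPKM against 4.56 and 1.47 FPKM. The part of basophils in the Prss34 level was not tested.

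**Figure D3:**
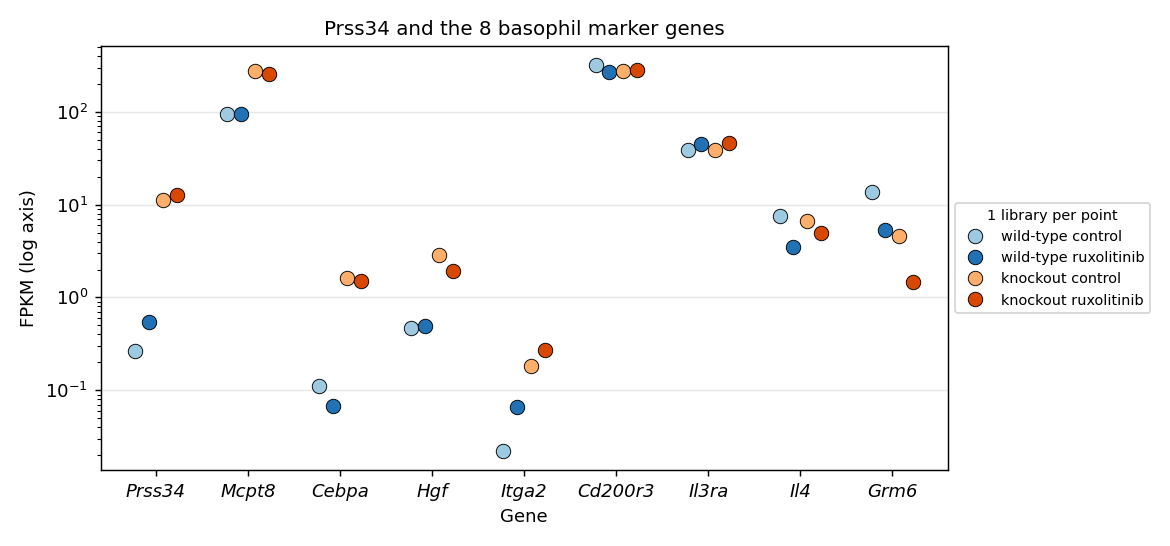
Levels of Prss34 and of the 8 basophil marker genes in FPKM on a log axis, 1 point per library. Prss34, Mcpt8, Cebpa, Hgf and Itga2 are higher in both knockout libraries, Grm6 is lower, and Cd200r3, Il3ra and Il4 overlap between genotypes.

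Markers of other blood cells did not share one direction. Of 5 megakaryocyte markers the sum was 669 and 750 FPKM for wild type against 447 and 537 FPKM for knockout, nearly all of it the integrin gene Itga2b, at 442 to 743 FPKM. For 9 neutrophil and granulocyte progenitor markers the sum was 90.5 and 109 FPKM against 29.3 and 29.3 FPKM, and Ctsg, the one measured among them, made up most of it. The eosinophil granule gene Prg2 was listed at 0 in both wild-type libraries, and knockout had 0.860 and 1.15 FPKM. Mpo, a peroxidase of granulocyte progenitors that was below the filter, went the other way from Ctsg, with 0.0380 and 0.0445 FPKM in wild type and 1.13 and 1.31 FPKM in knockout. The summed level of 5 eosinophil markers was 3.68 and 6.78 FPKM in wild type and 6.84 and 10.8 FPKM in knockout. Both knockout libraries lay above both wild-type libraries for 28.2% of all measured genes, and below for 28.2%. Among 6 monocyte markers they lay above for 3, all below the filter and none over 0.476 FPKM. Both lay below for 1, and the genotypes overlapped for 2, and nothing is read from these counts. The one that was lower in both knockout libraries was F13a1, with 12.0 and 9.66 FPKM in wild type. Lyz2, the other measured monocyte marker, overlapped, with 2.41 and 4.15 FPKM in wild type and 2.36 and 6.61 FPKM in knockout. The sum of 6 erythroid markers did not exceed 7.96 FPKM. The T cell genes Cd3e and Cd3g were listed at 0 in all 4 libraries. The part of these cells in the tryptase levels was not tested.

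The neighbourhood of the 3 genes was examined because they lie close together. Of 26 genes in the table within 250 kb on either side, the 3 included, 11 other genes were measured, and 0 of these reached 2-fold in any of the 4 comparisons. At most 1.7% of all measured genes did so in any comparison and direction, so 0 of 11 is near that share and nothing is read from it. Their log2 ratios of knockout to wild type ran from -0.23 to 0.36 without drug and from -0.21 to 0.67 with drug. The upper value in both cases was that of Cacna1h, a calcium channel gene which the deposited table places in one merged block with Tpsg1. Tpsg1 had ratios of -0.01 and 0.13. Prss28 and Prss29, protease genes that lie between Prss34 and Tpsab1, did not exceed 0.0584 FPKM. Of 13 tryptase-like serine protease genes taken as a list, 4 were measured and 7 were listed at 0 in all libraries.

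**Figure D4:**
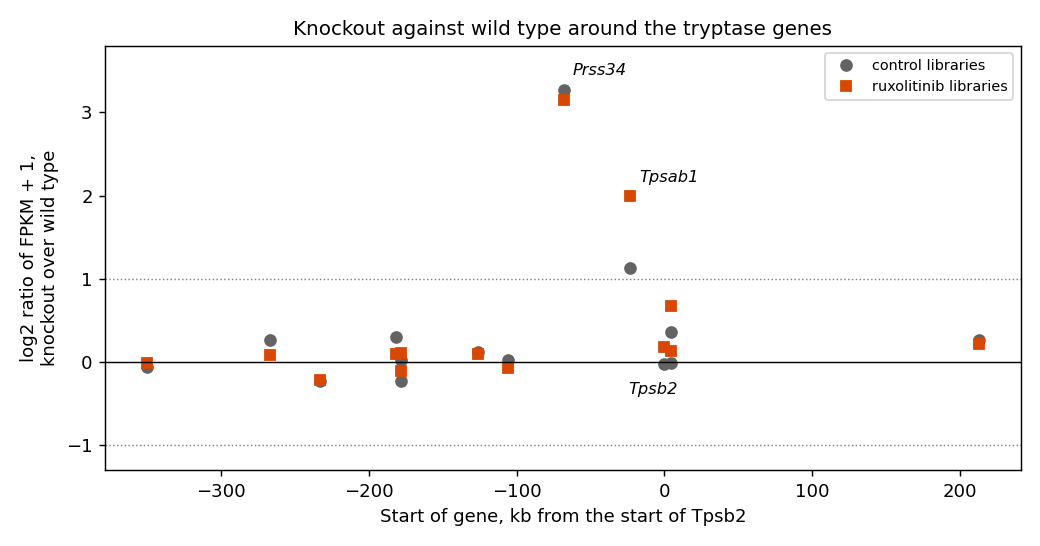
Log2 ratio of FPKM + 1, knockout over wild type, for the measured genes within 250 kb of the tryptase genes, against the distance in kb of each gene's start from that of Tpsb2; genes in a merged block share a start. Prss34 and Tpsab1 lie above the dotted 2-fold line, while Tpsb2 and the 11 other genes lie within it, as most measured genes did.

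The promoter of Prss34 is shown because this gene had the largest gap between genotypes of the 3. The RefSeq promoter table for GRCm38.p6 holds 1 of the 3 genes, Prss34, and the 250 bases before its start (chr17:25298144-25298393, plus strand) read as follows, with capitals at the 4 letters GATA on either strand.
Prss34 promoter: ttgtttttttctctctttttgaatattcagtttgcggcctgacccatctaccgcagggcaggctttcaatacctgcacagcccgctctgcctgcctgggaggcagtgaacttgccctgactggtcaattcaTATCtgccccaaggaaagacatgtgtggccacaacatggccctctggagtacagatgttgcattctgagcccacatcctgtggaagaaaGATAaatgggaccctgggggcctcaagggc

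GATA, the core that GATA factors bind, was present at 2 places, whose first bases lie at -119 and -30 from the start. Of 27025 promoter windows of the same length, 1 per gene, 54.1% hold these letters on either strand. The E-box letters CANNTG, bound by factors such as Mitf and Tal1, also occurred at 2 places, at -100 and -68, and 66.0% of windows hold them. The letters TTCNNNGAA, a core that STAT factors bind, occurred at 0 places in Prss34 and in 7.18% of windows. None of these places overlap, and a match is a description of the letters only.

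Genes with a profile like that of a tryptase gene were named for Tpsab1 and Prss34, whose log2 levels spanned at least 1 across the libraries. Likeness was the distance between log2(FPKM + 1) profiles over the 4 libraries, each centred on its own mean, among 7976 protein-coding genes at 5 FPKM or more in a library, or 7975 for Prss34. For Prss34 the nearest were the mast cell receptor Mrgprb1, the chemokine Ccl6, the mast cell receptor Mrgprb2, the adhesion protein gene Tns1 and the junction protein gene Perp, at distances of 0.60 to 1.04. Mrgprb1 had 0.225 and 0.177 FPKM in wild type and 6.48 and 6.83 FPKM in knockout. That gap follows from its choice as nearest to Prss34, so nothing is read from it. Mrgprb1 and the other genes named for Prss34 reached 5 FPKM in the knockout libraries alone. For Tpsab1 they were S100a4, Ccl9, Cd24a, S100a6 and Anxa2, at distances of 0.28 to 0.67. The calcium-binding protein gene S100a4 had 84.6 and 43.4 FPKM in wild type and 196.1 and 134.0 FPKM in knockout. This pattern follows from its choice as nearest to Tpsab1, so nothing is read from it. Ccl9 reached 5 FPKM in the knockout libraries alone. With 4 libraries these orders rest on few points. No gene was named for Tpsb2, whose log2 level spanned 0.29.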

How the data were processed

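RNA depleted of ribosomal RNA was sequenced in 4 libraries, 1 per group, assigned by their titles. The authors deposited FPKM values; the submitters' processing notes name STAR, Cuffdiff and mm10, without versions, annotation or scaling. Depth was estimated at 44.1 to 54.5 fragments per FPKM on 1 kilobase. In held-out genes, 76.6% to 83.9% of low values lay within 0.15 of a whole multiple of the step. Fragments of a gene were taken over its GENCODE M21 transcript, 1118 bases for Tpsb2, 1156 for Tpsab1 and 1220 for Prss34, less 200. The authors' deposited table of comparisons gave log2 fold changes without a pseudocount and q-values, and 4 of its 6 comparisons were used.

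Ratios were taken on log2(FPKM + 1), and no test was run, since each group is 1 library. Counting intervals are exact, at 95%. The members and gene lists were chosen with earlier results of these data known. Named genes were the members, fixed lists of granule proteases, heparin synthesis, cathepsins, transcription factors and cell markers, genes within 250 kb, and the 5 nearest profiles. The scripts for ratios, counts and steps were tested on simulated data. Alternatives were pseudocounts of 0.1 and 5, rescaling to TPM, median centring, the authors' fold changes, other filters, a 3-fold rule and protein-coding genes alone. Computation used pandas 2.3.3 and numpy 2.4.6 in Python 3.11.15, with intervals from scipy 1.17.1 and plots from matplotlib 3.10.9.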

Additional observations from a re-analysis of the deposited data

Results flagged for a closer look

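The knockout ratio of Tpsb2 was negative without drug, at -0.02, and positive with ruxolitinib, at 0.18, a difference of 0.20 on the log2 scale. Tpsg1 did the same, at -0.01 and 0.13, a difference of 0.15. Each value rests on 1 library per group and the differences were not tested. Rescaled to TPM, Tpsb2 had positive ratios in both pairs, 0.13 and 0.31.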

How the results depend on the processing

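Of 72 values of the members' ratios under an alternative, 62 stayed on their side of the 2-fold rule and within 1.5 times, and 10 did not; none at 2-fold or more changed sign, and 2 smaller ones did, Tpsb2 in TPM and the Prss34 difference of drug ratios (-0.12, and 0.05 with a pseudocount of 5). Of the 10 that did not, 9 were of Prss34, 1 of Tpsab1 and 0 of Tpsb2. The ratio of Prss34 in knockout without drug, 3.28, was 4.96 with a pseudocount of 0.1, 1.63 with 5, 4.04 in TPM and 5.40 in the authors' deposited table; with drug, 3.15 became 4.31, 1.68, 3.77 and 4.54. A smaller pseudocount weighs less on its low wild-type levels by construction. The authors' value for the drug in wild type was 1.04 for Prss34, and the Tpsab1 value there was -0.91 with a pseudocount of 5. TPM raised the median gene by 0.14 and 0.13 in the 2 knockout comparisons, and Tpsb2 without drug from -0.02 to 0.13.

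Counts at 2-fold or more, higher then lower, were 125 and 178 in the knockout without drug. They were 74 and 112 with a pseudocount of 5, 70 and 90 at 3-fold, and 55 and 106 for protein-coding genes. TPM gave 224 higher, and a mean of 5 FPKM gave 75. With drug, 124 and 141 became 67 and 81, 64 and 79, and 64 and 71, with 209 higher in TPM and 76 at a mean of 5. In TPM, higher genes made up 55.9% and 59.0% in these 2 comparisons, against 41.3% and 46.8%. For ruxolitinib in wild type, 54 and 135 became 4 and 69 for protein-coding genes, with 76 lower at 3-fold. In knockout, 66 and 96 became 41 and 59 at 3-fold and 15 and 33 for protein-coding genes. Depth limits Prss34 in wild type, where about 12 and 27 fragments stood behind it.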

Other observations

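Receptors that sense proteases were examined as a list. F2rl1, the receptor that tryptase is best known to cut, was listed at 0 in all 4 libraries. The thrombin receptor F2r had 377 and 287 FPKM in wild type, control first and ruxolitinib second, and 262 and 208 FPKM in knockout. F2rl2 lay between 7.59 and 12.0 FPKM and F2rl3 between 1.87 and 3.42 FPKM, and 0 of the 3 measured receptors reached 2-fold in any comparison. At most 1.7% of all measured genes did so in any comparison and direction, so nothing is read from that count. All 3 receptors had negative ratios of drug to control in both genotypes. Their medians were -0.40 in wild type and -0.44 in knockout, beside 0.01 and 0.00 over all measured genes.

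Genes of the IgE receptor and the mast cell surface, through which tryptase release is triggered, were all measured, 10 of 10. In each knockout comparison 2 were at least 2-fold higher and 0 lower, beside 1.19% and 1.18% of all measured genes higher without and with drug, with medians of -0.42 without drug and -0.30 with drug. Nothing is read from that count, since Mrgprb1 passed the filter through the knockout libraries alone. The higher genes were Mrgprb1 and Mrgprb2, the second of which encodes a receptor for basic secretagogues and had 0.769 and 1.52 FPKM in wild type and 10.01 and 29.6 FPKM in knockout. The IgE receptor chains had negative ratios, and Fcer1a had 5594 and 6008.5 FPKM in wild type against 3451 and 3648 FPKM in knockout. With ruxolitinib, 1 gene was 2-fold lower in wild type, the histamine-forming enzyme Hdc at 12.2 and 3.68 FPKM, and 1 was 2-fold higher in knockout, Mrgprb2. Of all measured genes, 1.29% were that much lower in wild type and 0.63% that much higher in knockout.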
